A study of Mus musculus with 2 samples.

Results

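The genes described here are 8 genes that mark eosinophils, mast cells and basophils: Prg2, Prg3, Epx, Cpa3, Hdc, Gata2, Fcer1a and Ms4a2. They were chosen by name from the 54736 gene symbols of the deposited spliced count matrix. Single-cell RNA was measured in the 63.3 mouse acute myeloid leukemia line, with 1 culture per condition. The tested cultures were given brequinar at 2 µM, an inhibitor of pyrimidine synthesis at dihydroorotate dehydrogenase, for 6, 12, 24 or 48 h, or were moved to medium without beta-estradiol for 6, 12, 24 or 48 h. Each of these 2 series has its own 0 h culture. All cultures were grown with stem cell factor from conditioned medium, and all but the withdrawal cultures with 0.5 µM beta-estradiol. Whether solvent was given at 0 h is not stated, and no untreated culture of a later time was analysed here, so treatment and time in culture cannot be told apart. Cultures were marked with lipid-anchored DNA barcodes, pooled and loaded together.

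The 10 cultures hold 528 to 1536 cells called as belonging to 1 culture, 12540 in all, and 5236694 to 19931921 spliced UMIs (unique molecular identifiers, each standing for 1 captured RNA molecule) per culture. Median UMIs per cell were 9782 in the brequinar culture and 6509 in the withdrawal culture at 48 h, against 14849 and 15229 in their 0 h cultures. A level is given as CPM, the gene's UMIs per 1000000 UMIs of that culture. A fold is a ratio of CPM with a 95% interval that covers counting error only. It takes each UMI as independent and does not cover the spread between cells, which is large for genes such as Prg2. With 1 culture per condition there is no replicate check and no test. In a summed culture, fewer cells that express a gene and less of its RNA per cell cannot be told apart, and for that reason the cells are also described.

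Eosinophils store toxic cationic proteins in their granules, among them major basic protein and eosinophil peroxidase. Mast cells and basophils store histamine and proteases, and release them when antigen crosslinks IgE held by their high-affinity receptor. GATA factors act in all 3 lineages, beside C/EBP factors, and set them apart from neutrophils and monocytes.

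Promoters are shown for 5 of the genes because the lineages share GATA factors: Prg3 and Epx for the eosinophil granule, Cpa3 and Hdc for granule contents of mast cells and basophils, and Ms4a2 for the IgE receptor. Each runs from 250 bases before to 50 bases after the start site, in the direction of the gene, from RefSeq on GRCm38.p6. Capitals mark GATA hexamers, the letters GATA with an A or a T before them and an A or a G after them, searched on both strands, so that the match in Prg3 reads TTATCA. They lie at chr2:84987965-84988264 on the plus strand (Prg3), and on the minus strand at chr11:87875487-87875786 (Epx), chr3:20242132-20242431 (Cpa3), chr2:126618629-126618928 (Hdc) and chr19:11623670-11623969 (Ms4a2).
Prg3: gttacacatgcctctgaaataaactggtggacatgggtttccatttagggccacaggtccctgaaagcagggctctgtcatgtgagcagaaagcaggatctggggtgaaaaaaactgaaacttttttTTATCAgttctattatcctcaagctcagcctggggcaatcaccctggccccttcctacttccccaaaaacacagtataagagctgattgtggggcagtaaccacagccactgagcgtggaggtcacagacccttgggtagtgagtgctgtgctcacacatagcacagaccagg
Epx: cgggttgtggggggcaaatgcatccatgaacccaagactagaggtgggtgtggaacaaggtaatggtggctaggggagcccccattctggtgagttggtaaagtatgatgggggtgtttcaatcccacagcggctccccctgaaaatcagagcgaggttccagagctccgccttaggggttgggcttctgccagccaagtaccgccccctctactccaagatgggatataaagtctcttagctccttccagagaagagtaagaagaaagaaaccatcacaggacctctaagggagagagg
Cpa3: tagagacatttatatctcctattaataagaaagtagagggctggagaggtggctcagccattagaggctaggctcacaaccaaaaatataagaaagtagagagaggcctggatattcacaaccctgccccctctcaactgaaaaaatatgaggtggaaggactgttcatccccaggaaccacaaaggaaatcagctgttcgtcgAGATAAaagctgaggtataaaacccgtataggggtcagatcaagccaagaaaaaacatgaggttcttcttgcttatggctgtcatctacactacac
Hdc: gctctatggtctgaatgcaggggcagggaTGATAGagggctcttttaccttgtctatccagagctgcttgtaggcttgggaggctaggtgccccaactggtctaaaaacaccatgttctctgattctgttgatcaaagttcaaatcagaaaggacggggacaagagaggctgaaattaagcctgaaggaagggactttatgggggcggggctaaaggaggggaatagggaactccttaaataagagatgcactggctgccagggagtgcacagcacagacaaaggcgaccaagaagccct
Ms4a2: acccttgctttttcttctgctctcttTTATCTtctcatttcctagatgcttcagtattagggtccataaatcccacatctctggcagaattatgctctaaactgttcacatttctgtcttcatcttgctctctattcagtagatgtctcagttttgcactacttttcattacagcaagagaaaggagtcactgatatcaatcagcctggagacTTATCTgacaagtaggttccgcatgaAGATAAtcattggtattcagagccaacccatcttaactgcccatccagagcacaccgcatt

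Of the 7 genes with an entry in that table, 5 had a GATA hexamer in the window: Prg3, Cpa3, Hdc, Fcer1a and Ms4a2, the last with 3. Over all 32851 promoters of the table, 29.8% held at least 1. The match lies at -123 in Prg3, -46 in Cpa3 and -221 in Hdc, counted from the start site, and at -224, -37 and -11 in Ms4a2. Neither Epx nor either of the Gata2 entries held one in its window. Letters of C/EBP factors (TTNNGNAA, N being any base) were searched too. They lay in Prg3, Fcer1a and 1 of the Gata2 entries, against 40.7% of all promoters. Letters of ETS factors (GAGGAA) lay in Fcer1a alone, against 28.3%. A match of letters is a description and not a binding site.

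The 3 eosinophil granule genes were higher at late times of both series. Prg2 encodes major basic protein. Over 0, 6, 12, 24 and 48 h it stood at 684, 749, 914, 2002 and 9165 CPM in the brequinar series. In the withdrawal series it stood at 631, 813, 2159, 9559 and 7519 CPM over the same times. It stayed within 1.5-fold of 0 h until 12 h with brequinar and until 6 h without estradiol. At 48 h it was 13.4-fold higher with brequinar than at 0 h (13.1 to 13.7), and at 24 h of withdrawal 15.2-fold higher than at 0 h (14.9 to 15.4). These folds depend on how cells are weighed: without the 2% of cells richest in the 8 genes they were 28.1-fold and 33.0-fold, and with equal weight for each cell 7.96-fold and 10.5-fold. With brequinar most of the difference fell between 24 and 48 h, and without estradiol between 12 and 24 h.

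Prg3 encodes a homolog of major basic protein and is a paralog of Prg2. How the authors' counting treats reads that match both was not tested, so their split is uncertain. It stood at 737, 371, 552, 1365 and 2361 CPM in the brequinar series and at 580, 541, 2521, 6973 and 1563 CPM in the withdrawal series. Brequinar at 6 h gave the only lower value past the 1.5-fold limit among the granule genes, 1.99-fold below 0 h (1.92 to 2.05). Withdrawal gave a sharp maximum at 24 h, 12.0-fold above 0 h (11.8 to 12.3), and a level at 48 h that was 2.69-fold above 0 h (2.62 to 2.77). The UMIs of Prg2 per UMI of Prg3 therefore differed within each series. They were 0.928, 2.02, 1.66, 1.47 and 3.88 over the brequinar times and 1.09, 1.5, 0.857, 1.37 and 4.81 over the withdrawal times. At 48 h this ratio was the highest of its series in both.

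Epx encodes eosinophil peroxidase and was scarce. It stood at 0.251, 0.762, 0.564, 3.21 and 12.2 CPM in the brequinar series and at 0.644, 1.32, 1.75, 18.5 and 28.4 CPM in the withdrawal series. The 0 h values rest on 5 and 12 UMIs. Withdrawal at 48 h was 44.1-fold higher than 0 h (24.7 to 86.8), and it was the only comparison with 0 h in which Epx reached 20 CPM. The brequinar value at 48 h rests on 64 UMIs and was 48.7-fold higher than at 0 h (19.8 to 155), or 438-fold with 5% of each sum taken off as free RNA. Without the 2% of cells richest in the 8 genes the fold at 48 h of withdrawal was 13.2.

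**Figure D1:**
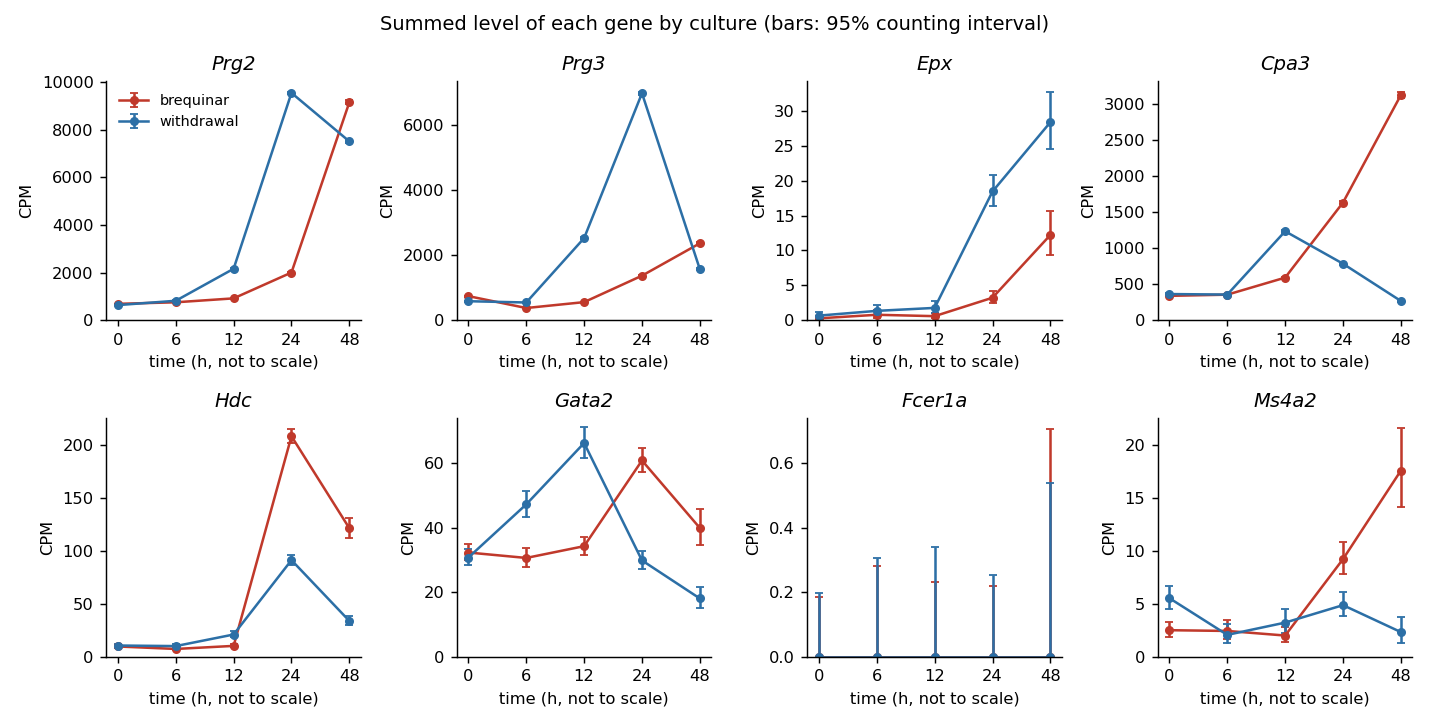
Level of each of the 8 genes in CPM (vertical axes, linear) by time in h (horizontal axes, not to scale) in the brequinar and withdrawal cultures; each point is 1 culture and bars are 95% counting intervals. Prg2 reached 9165 CPM with brequinar at 48 h and 9559 CPM at 24 h of withdrawal, Cpa3 stood at 3131 CPM with brequinar and 266 CPM after withdrawal at 48 h, and Fcer1a lies at 0 throughout, with only the upper bound of its interval above it.

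Cpa3 took another course than the granule genes of eosinophils. It encodes the granule protease carboxypeptidase A3. Cpa3 stood at 337, 354, 591, 1635 and 3131 CPM in the brequinar series, each value from 12 h on above the one before. In the withdrawal series it stood at 362, 355, 1236, 784 and 266 CPM, with its maximum at 12 h. Brequinar at 48 h was 9.28-fold above 0 h (9.02 to 9.55), whereas withdrawal at 48 h was at 0.734 of its 0 h level (0.697 to 0.773), inside the 1.5-fold limit.

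Hdc encodes histidine decarboxylase, the enzyme that makes histamine. It stood at 9.73, 7.39, 10.3, 208 and 121 CPM in the brequinar series and at 10.6, 10.1, 21.0, 91.2 and 33.8 CPM in the withdrawal series. Both series had their highest value at 24 h. There it was 21.4-fold above 0 h with brequinar (18.5 to 24.8) and 8.58-fold above 0 h after withdrawal (7.38 to 10.0).

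Gata2 encodes a transcription factor of blood progenitors, mast cells and basophils, and its differences were small. It stood at 32.3, 30.6, 34.3, 60.8 and 39.9 CPM in the brequinar series and at 30.8, 47.2, 66.2, 29.9 and 18.1 CPM in the withdrawal series. Withdrawal had its maximum at 12 h, 2.15-fold above 0 h (1.93 to 2.41), and brequinar at 24 h, 1.88-fold above 0 h (1.70 to 2.08). At 48 h of withdrawal Gata2 was 1.70-fold below 0 h (1.4 to 2.08), a value inside the limit under each of the other scalings of the libraries.

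The subunits of the IgE receptor differed widely in level. Fcer1a, which encodes the chain that binds IgE, is listed at 0 in every culture and in all 209704818 spliced UMIs of all barcodes. Ear1, Ear2, Ear10 and the tryptase gene Tpsab1 are likewise listed at 0 in all barcodes. Such a value can come from how the matrix was made, so nothing is read from it. Ms4a2, which encodes the beta chain, stood at 2.51, 2.44, 2.01, 9.22 and 17.6 CPM in the brequinar series and at 5.53, 2.07, 3.22, 4.87 and 2.33 CPM in the withdrawal series. The brequinar value at 48 h rests on 92 UMIs and was 7.0-fold above 0 h (4.91 to 10.1). The pair of 0 h cultures already differed 2.20-fold in Ms4a2 (1.56 to 3.16), higher in the withdrawal series. Fcer1g, which encodes the gamma chain shared with other immune receptors, stood at 2207 CPM at 48 h of brequinar and 1222 CPM at 0 h, and at 2631 CPM at 48 h of withdrawal and 1215 CPM at 0 h.

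A gene counts as higher or lower here when it is at least 1.5-fold away and at 20 CPM or more in either culture. With brequinar at 6 h Prg3 was lower (4.97% of all genes at this level were lower) and no member higher (8.82% of all genes). At 12 h of brequinar Cpa3 was higher (13.5%) and no member lower (4.67%). At 24 h of brequinar 5 of the 8 genes were higher, namely Prg2, Prg3, Cpa3, Hdc and Gata2 (29.2% of all genes), and none lower (13.8%). At 48 h of brequinar 4 were higher (25.7%), the same without Gata2, and none was lower (17.3%). The median log2 ratio of the 8 genes at 48 h, those under 20 CPM included, was 1.69. Over all genes at 20 CPM or more, an unlike set, it was 0.04.

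Without estradiol for 6 h Gata2 was higher (12.3% of all genes) and no member lower (8.11%). At 12 h the same 5 genes as at 24 h of brequinar were higher (13.4%) and none lower (11.2%). At 24 h Prg2, Prg3, Cpa3 and Hdc were higher (9.46%) and none lower (11.9%). At 48 h Prg2, Prg3, Epx and Hdc were higher (21.5%) and Gata2 was lower (40.7%). The median log2 ratio of all 8 genes was 1.58 at 24 h, against -0.14 over all genes at 20 CPM or more, and 0.66 at 48 h, against -0.33. The genes not counted were under 20 CPM, 3 at 12 and 24 h and 2 at 48 h, except Gata2 at 24 h and Cpa3 at 48 h. In both series Hdc and Epx were under 20 CPM at 0 h, so against 0 h they could not count as lower. Gata2 was under 20 CPM at 48 h of withdrawal and could not count as higher there. The members were picked with earlier results in view, so these counts only describe them.

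Set against withdrawal at the same time, brequinar cultures were lower in 5 of the 8 genes at 12 h, and higher in 4 and lower in 1 at 48 h. Hdc at 12 h, and Gata2 and Epx at 48 h, reached 20 CPM in only 1 of the 2 cultures. They could therefore not count on the other side. At 0 h no member passed the limit (0% of all genes higher, 0.0546% lower). At 6 h Gata2 was lower with brequinar (1.45% of all genes) and none was higher (1.9%). At 12 h Prg2, Prg3, Cpa3, Hdc and Gata2 were lower with brequinar (7.33% of all genes) and none was higher (13.2%). Prg3 differed most, with 552 CPM in the brequinar culture and 2521 CPM in the withdrawal culture, 4.57-fold lower (4.46 to 4.68). At 24 h Prg2 and Prg3 were lower with brequinar (8.05% of all genes), 4.78-fold and 5.11-fold, while Cpa3, Hdc and Gata2 were 2.09-fold, 2.28-fold and 2.04-fold higher (29.6%).

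At 48 h Prg3, Cpa3, Hdc and Gata2 were higher with brequinar than after withdrawal (37.6% of all genes higher). Cpa3 differed most, with 3131 CPM in the brequinar culture and 266 CPM in the withdrawal culture, 11.8-fold higher (11.2 to 12.4). Hdc was 3.59-fold higher (3.08 to 4.19) and Gata2 2.21-fold higher (1.76 to 2.78). Prg3 was 1.51-fold higher (1.47 to 1.55), which is at the limit, and was 1.16-fold higher under either other scaling of the libraries. Prg2 was within 1.5-fold, at 1.22-fold (1.20 to 1.23), and at 0.93 under either other scaling. Epx was 2.33-fold lower with brequinar (1.74 to 3.13; 8.57% of all genes lower), but 1.71-fold higher once the 2% of cells richest in the 8 genes were left out of each culture. Without those cells Prg2 was 3.0-fold higher with brequinar.

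The cells show how these levels were made up. To compare cells of different depth, each was thinned at random to 2500 UMIs, and the 2.46% to 18.7% of cells per culture with fewer were left out. Prg2 was found in 37.4%, 39.4%, 41.3%, 49.5% and 60.2% of cells over the brequinar times and in 36.7%, 42.1%, 43.1%, 66.0% and 64.1% over the withdrawal times. Prg2 makes up 3139 CPM of the RNA in barcodes of 2 to 100 UMIs, which stands for the free RNA that all pooled cultures share. If 5% of a cell's UMIs were such RNA, 32.5% of cells would have a Prg2 UMI from it alone. The shares up to 12 h are therefore close to that level, and 1 or a few Prg2 UMIs in a cell are not read as expression. No cell type that should lack the gene was at hand to measure it directly.

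Prg3 was found in 41.3%, 37.5%, 41.4%, 62.4% and 65.0% of cells over the brequinar times and in 39.4%, 41.3%, 72.3%, 93.8% and 67.9% over the withdrawal times, against 19.8% under the same supposition. At 24 h of withdrawal nearly every cell had Prg3. Its 10% of cells with most UMIs held 32.8% of the Prg3 UMIs there, against 80.4% for Prg2 in the same culture, with cells ranked by each gene in turn. The granule genes thus differed in spread: Prg3 was broad where Prg2 was held by few cells.

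Cpa3 was found in 41.3%, 40.9%, 59.2%, 81.6% and 80.8% of cells over the brequinar times and in 45.2%, 44.6%, 72.4%, 51.2% and 22.2% over the withdrawal times, against 8.84% under the supposition. Most cells had Cpa3 at 24 and 48 h of brequinar, and most did not at 48 h of withdrawal. Hdc was found in 2.06%, 1.71%, 1.89%, 35.1% and 25.2% of cells over the brequinar times and in 2.30%, 2.56%, 4.80%, 17.7% and 7.32% over the withdrawal times. The 24 h shares have intervals of 32.6% to 37.6% with brequinar and 15.6% to 20.1% after withdrawal, for counting error within 1 culture each. Gata2 was in 7.41%, 6.23%, 7.85%, 13.8% and 7.38% of cells over the brequinar times and in 6.82%, 11.6%, 16.3%, 6.64% and 3.94% over the withdrawal times. The supposition gives 0.710% for Hdc and 0.654% for Gata2, so both lay above it in every culture. Epx was in at most 2.45% of the cells of a culture and Ms4a2 in at most 2.14%.

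**Figure D2:**
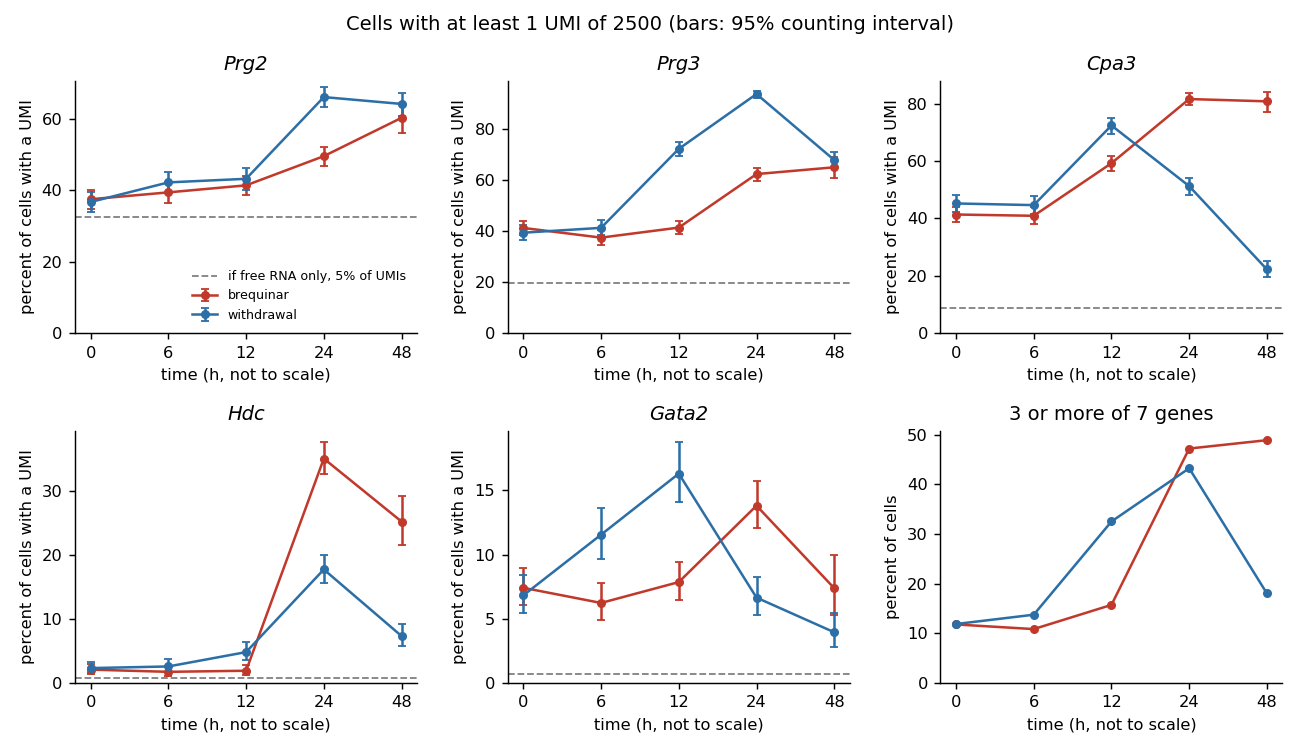
Percent of cells with at least 1 UMI of Prg2, Prg3, Cpa3, Hdc or Gata2 after thinning to 2500 UMIs, and percent with 3 or more of the 7 genes other than Fcer1a (vertical axes), by time in h (not to scale); points are cultures, bars 95% counting intervals, and the dashed line is the share if 5% of UMIs were free RNA and nothing else. Prg2 lies near its line up to 12 h, while Prg3 reached 93.8% at 24 h of withdrawal and Cpa3 was in 80.8% of brequinar cells and 22.2% of withdrawal cells at 48 h.

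Most Prg2 UMIs of every culture lay in a minority of its cells. Cells with 25 or more Prg2 UMIs of 2500, 1% of their RNA, are called Prg2-rich here; the limit was chosen after the values were seen. They made up 1.30%, 0.903%, 1.13%, 3.14% and 20.0% of cells over the brequinar times and 0.853%, 1.14%, 2.60%, 16.6% and 5.41% over the withdrawal times. In cells these are 17, 10, 15, 45 and 103 with brequinar and 10, 12, 26, 190 and 48 after withdrawal. They held 65.8% to 92.8% of all Prg2 UMIs of their culture. Between 2 and 83 cells of a culture lay near the limit, at 13 to 49 UMIs.

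At 48 h of withdrawal the rich cells were fewer than at 24 h but fuller, with a mean of 339 Prg2 UMIs per rich cell, against 146 at 24 h. Both were above the 105 of the brequinar culture at 48 h. In the fullest cell, at 48 h of withdrawal, 34.3% of the UMIs were Prg2. The other cells averaged 0.601 to 2.25 Prg2 UMIs. Median depth was close between rich and other cells at 24 and 48 h: 10266 and 9723 UMIs with brequinar at 48 h, 11296 and 12641 at 24 h of withdrawal, and 7015 and 6711 at 48 h of withdrawal. Mitochondrial shares differed by less than 1 percentage point.

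**Figure D3:**
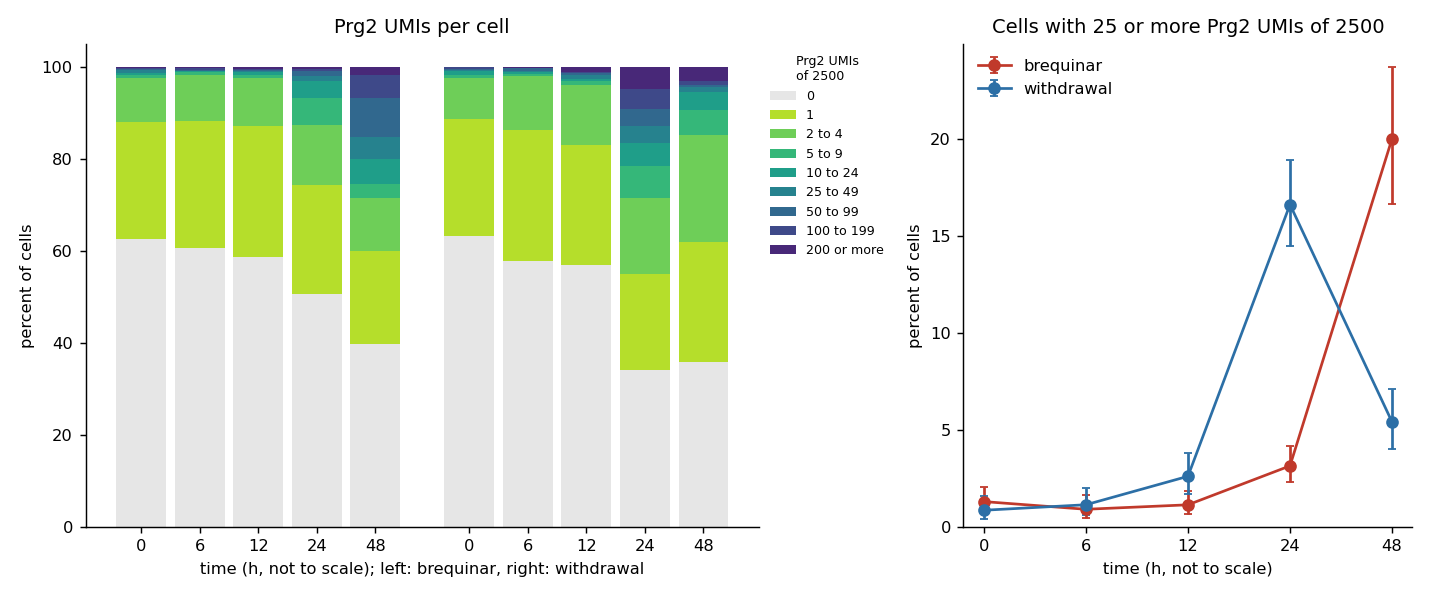
Left: percent of cells (vertical axis) by number of Prg2 UMIs after thinning to 2500, stacked, for each culture by time in h (not to scale). Right: percent of cells with 25 or more Prg2 UMIs, with 95% counting intervals. The share of such cells reached 20.0% with brequinar at 48 h and 16.6% at 24 h of withdrawal, and was 5.41% at 48 h of withdrawal.

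Some other eosinophil genes, those named here, were denser in the Prg2-rich cells of the withdrawal series, which is a description of cells picked by Prg2. Siglecf and Ltc4s, also eosinophil genes, are not compared in the text, so nothing is said of the eosinophil genes as a set. Siglecf is plotted below and is not named there among the genes denser in all cultures shown. At 24 h of withdrawal the rich cells held 246 Epx UMIs and the other cells 6, which is 113 and 0.500 CPM. At 48 h of withdrawal they held 189 and the others 1. Ear6, an eosinophil ribonuclease gene with close paralogs, had 41 UMIs in rich and 2 in other cells at 24 h, and 15 and 0 at 48 h. Prg3 was 3.42-fold denser in rich cells at 24 h and 8.33-fold at 48 h, Il5ra (interleukin-5 receptor) 15.0-fold and 23.3-fold, and Alox15, a lipoxygenase of eosinophils, 11.5-fold and 34.4-fold. Gata1, a GATA factor of eosinophils and mast cells, was 15.4-fold and 17.6-fold denser. These Gata1 values are for the withdrawal series only, and its ratios in the brequinar cultures are not given in the text.

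Cpa3 and Hdc were also denser in the Prg2-rich cells of the withdrawal series, by 5.44-fold and 5.66-fold at 24 h and by 5.54-fold and 7.81-fold at 48 h. Genes of neutrophils and their precursors went the other way. S100a8, which encodes an abundant neutrophil protein, stood at 69.2 CPM in rich and 377 CPM in other cells at 24 h of withdrawal. Elane (neutrophil elastase) stood at 66.5 and 250.6 CPM, and Mpo (myeloperoxidase) at 1495 and 3083 CPM. In the brequinar culture at 48 h the rich cells were likewise richer in Prg3, 8.81-fold, and poorer in Elane, 33.6 against 369 CPM, but Cpa3 differed less, 1.96-fold. Ms4a2 did not go with Prg2 there: 2 of its UMIs lay in rich cells and 90 in the others, whereas at 24 h of brequinar 42 lay in the 45 rich cells and 111 in the others.

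**Figure D4:**
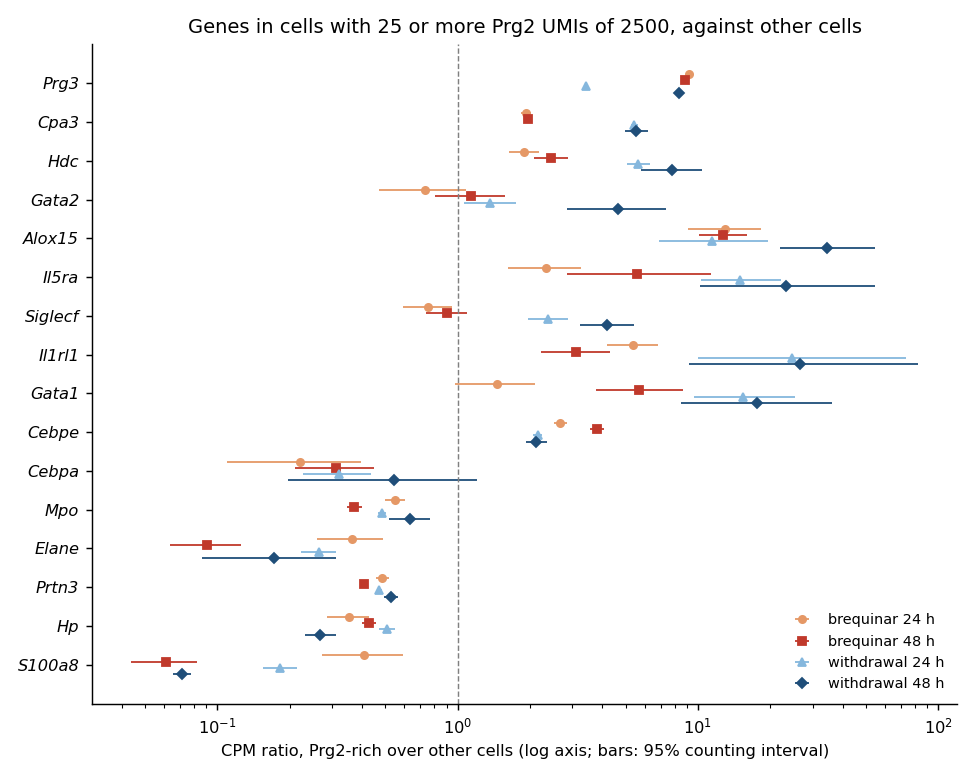
CPM in Prg2-rich cells over CPM in the other cells of the same culture (horizontal log axis) for 16 genes, at 24 and 48 h of each series; points are ratios and bars 95% counting intervals, and the dashed line is a ratio of 1. Prg3, Cpa3, Hdc, Alox15, Il5ra and Cebpe lie right of the line in all 4 cultures and Mpo, Elane, Prtn3, Hp and S100a8 left of it. Gata2, Siglecf, Il1rl1, Gata1 and Cebpa are plotted too and are not named as lying on 1 side in all 4 cultures.

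Detection of the genes together was measured pair by pair in the thinned cells. The odds ratio is the odds of a UMI of 1 gene in cells with the other, over the odds in cells without it. For Prg2 and Prg3 it was 2.01, 1.49, 1.30, 2.71 and 4.12 over the brequinar times and 1.65, 1.41, 1.41, 1.97 and 2.01 over the withdrawal times. The amount differed more than the detection. At 24 h of withdrawal cells with Prg3 held 27.9 Prg2 UMIs on average and cells without it 0.606. At 48 h of brequinar these means were 34.6 and 0.594.

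Cells with Epx in the withdrawal series also held other eosinophil and mast cell genes. All 28 Epx-positive cells at 24 h of withdrawal and all 19 at 48 h had both Prg2 (18.5 and 12.2 expected if independent) and Prg3 (26.3 and 12.9 expected). Cpa3 was in 26 of the 28 (14.3 expected) and in 15 of the 19 (4.21 expected). Hdc was in 20 of the 28 (4.97 expected) and in 10 of the 19 (1.39 expected). Hp, the haptoglobin gene, which 819 of the 888 cells had at 48 h of withdrawal, was in 2 of those 19 (17.5 expected). These 2 groups of cells come from 1 culture each.

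Cpa3 and Hdc had odds ratios of 1.71 and 1.80 at 24 and 48 h of brequinar and of 3.28 and 2.73 at 24 and 48 h of withdrawal. Cpa3 and Gata2 had 1.10 and 1.12 at 24 h of brequinar and of withdrawal, and 2.94 and 3.99 at 48 h. Prg2 and Mpo, a pair across lineages, had 0.543, 0.287, 0.105 and 1.17 at 24 and 48 h of brequinar and 24 and 48 h of withdrawal. Without thinning this ratio was 2.95 with brequinar at 24 h and 4.32 at 24 h of withdrawal, so its side of 1 depended on depth there. Cpa3 and Hp had 0.180 with brequinar at 48 h and 0.224 at 48 h of withdrawal. Ms4a2 was in 11 cells at 48 h of brequinar. All 11 had Cpa3 (8.89 expected), 6 had Hdc (2.78 expected), 5 had Prg2 (6.62 expected) and 1 had Hp (8.86 expected). At least 3 of the 7 genes other than Fcer1a were found in 11.8%, 10.8%, 15.7%, 47.2% and 48.9% of cells over the brequinar times and in 11.9%, 13.7%, 32.5%, 43.3% and 18.0% over the withdrawal times. Cells with none of the 7 made up 5.63% of the brequinar culture at 48 h and 23.1% at 0 h, and 11.5% of the withdrawal culture at 48 h and 22.8% at 0 h. If 5% of UMIs were free RNA and nothing else, 0.705% of cells would have 3 or more and 48.7% none. These counts take single UMIs and so hold an unmeasured part from free RNA.

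The 8 genes also stand in wider lists: 3 are in a list of 12 eosinophil genes and 4 in a list of 22 mast cell and basophil genes. Of the 12 eosinophil genes, 5 reached 20 CPM and were higher at 24 h of brequinar (29.2% of all genes higher), and 4 did at 48 h (25.7%). After withdrawal 3 did at 24 h (9.46%) and 4 at 48 h (21.5%). None was lower, and the other 7 to 9 genes stayed under 20 CPM. Genes such as Epx and Alox15 reached that limit only in the culture where they were high. Over all 12 genes, those at 0 included, the median log2 ratio at 48 h was 0.38 with brequinar and 0.52 after withdrawal. Over all genes at 20 CPM or more, an unlike set without the scarce genes, it was 0.04 and -0.33. Siglecf, an eosinophil lectin receptor, stood at 124 CPM at 48 h of brequinar and 19.7 CPM at 0 h, and at 61.3 CPM at 48 h of withdrawal and 21.1 CPM at 0 h. Alox15 stood at 84.0 CPM at 48 h of brequinar and 1.86 CPM at 0 h, and at 17.5 CPM at 48 h of withdrawal and 2.79 CPM at 0 h. Ccr3, the eotaxin receptor, had 20 UMIs in all barcodes.

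Of the 22 mast cell and basophil genes, 9 reached 20 CPM at 24 h of brequinar, with 7 higher (29.2% of all genes) and none lower (13.8%). At 48 h 10 did, with 7 higher (25.7%) and 1 lower (17.3%). After withdrawal 8 reached it at 12 h, with 5 higher (13.4%) and 1 lower (11.2%). At 24 and 48 h of withdrawal 7 did, with 2 higher (9.46% and 21.5%) and 3 lower (11.9% and 40.7%), so that the share lower at 48 h was near that of all genes. Hdc, Cd200r3, Il1rl1 and Il4 were under 20 CPM in both 0 h cultures, so in these counts they could not be lower. Mcpt8 was under 20 CPM at 48 h of both series and could not be higher there. Over all 22 genes, those under 20 CPM included, the median log2 ratio at 48 h was 0.38 with brequinar and 0 after withdrawal. Over those of the list at 20 CPM or more it was 1.57 and -0.44, against 0.04 and -0.33 over all genes at that level. Cd200r3, an activating receptor of mast cells and basophils, stood at 50.2 CPM at 48 h of brequinar and 1.51 CPM at 0 h, and at 14.1 CPM at 48 h of withdrawal and 2.90 CPM at 0 h. Il1rl1, the interleukin-33 receptor, stood at 29.4 CPM at 48 h of brequinar and 2.06 CPM at 0 h, and at 2.91 and 1.99 CPM in the withdrawal cultures of these times. Il4 stood at 20.6 CPM at 48 h of brequinar and 0.351 CPM at 0 h, and at 4.95 CPM at 48 h of withdrawal and 0.376 CPM at 0 h, with 7 UMIs in each 0 h culture. Mcpt8, a basophil protease gene, was lower at 48 h of both, at 13.6 CPM with brequinar and 55.7 CPM at 0 h, and at 5.97 CPM after withdrawal and 55.6 CPM at 0 h. Kit, which encodes the receptor for stem cell factor, was 5.52-fold lower at 48 h of withdrawal than at 0 h (4.68 to 6.56). Of the mast cell proteases, Mcpt1, Mcpt2, Mcpt4 and Tpsb2 had 1 to 4 UMIs each in all barcodes, and Cma1 had 375, with at most 4.29 CPM in a culture. No cell is named a mast cell, basophil or eosinophil.

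Of 18 transcription factors of these lineages, 14 reached 20 CPM at 48 h of brequinar, with 10 higher (25.7% of all genes) and 1 lower (17.3%). After 48 h of withdrawal 13 did, with 8 higher (21.5%) and 5 lower (40.7%), the lower share near that of all genes. Id2 and Bhlhe40 in both series, and Stat5b with brequinar, reached 20 CPM only at 48 h and could not count as lower. Tal1 in both series, and Gata2 and Stat5a after withdrawal, reached it only at 0 h and could not count as higher. The median log2 ratio over all 18 was 1.00 with brequinar and 0.57 after withdrawal at 48 h. Over those of the list at 20 CPM or more it was 1.07 and 1.24, against 0.04 and -0.33 over all genes at that level. Cebpe, a C/EBP factor of granulocyte maturation, stood at 659 CPM at 48 h of brequinar and 125.8 CPM at 0 h, and at 612 CPM at 48 h of withdrawal and 116 CPM at 0 h. Gata1 stood at 37.3 CPM at 24 h of brequinar and 3.81 CPM at 0 h, and at 7.0 CPM at 24 h of withdrawal and 2.63 CPM at 0 h. Of 10 cytokine receptor genes, 7 reached 20 CPM with brequinar at 48 h, with 5 higher (25.7%) and none lower (17.3%). After withdrawal for 48 h 5 did, with 4 higher (21.5%) and 1, Kit, lower (40.7%). Il3ra, Il1rl1 and Csf2rb2 with brequinar, and Csf2rb2 after withdrawal, reached 20 CPM only at 48 h and could not count as lower. Csf2rb, the beta chain shared by the receptors for interleukin-3, interleukin-5 and GM-CSF, stood at 226 CPM at 48 h of brequinar and 40.4 CPM at 0 h, and at 189 CPM at 48 h of withdrawal and 40.9 CPM at 0 h.

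Markers of other lineages moved in the same cultures. The summed level of 10 neutrophil genes was 1966 CPM at 48 h of brequinar and 329 CPM at 0 h, with 6 higher (25.7% of all genes). It was 59001 CPM at 48 h of withdrawal and 387 CPM at 0 h, with 10 higher (21.5%). Some reached 20 CPM only at 48 h and could not count as lower. These were Ngp and Mmp8 with brequinar, and Camp, Ltf, Retnlg, Mmp8 and Cxcr2 after withdrawal. The summed level of 5 promyelocyte genes at 48 h and 0 h was 12375 and 8251 CPM with brequinar and 9018 and 8290.0 CPM after withdrawal. With brequinar 4 were higher (25.7% of all genes) and none lower (17.3%). The near-equal sums after withdrawal hold opposite moves, with Elane, Ms4a3 and Prtn3 higher (21.5%) and Ctsg and Mpo lower (40.7%). Ctsg, the largest at 0 h, stood at 1815 CPM at 48 h of withdrawal and 4437 CPM at 0 h. That of 7 monocyte genes was 626 and 117 CPM with brequinar and 434 and 113 CPM after withdrawal. Of 6 megakaryocyte genes 3 were higher at 48 h of brequinar (25.7% of all genes), with a sum over the 6 of 179 CPM and 31.6 CPM at 0 h. These 3, Pf4, Itga2b and Gp9, were under 20 CPM at 0 h, so they could not count as lower. None of the 6 erythroid genes reached 20 CPM. Of 6 lymphoid genes, Ebf1 and Igll1 were lower at 48 h of brequinar (17.3% of all genes) and of withdrawal (40.7%). Cd79a was higher at 48 h of brequinar (25.7%), with 28.6 CPM and 3.26 CPM at 0 h, and passed the CPM limit only there. The part of other cell types in the levels of the 8 genes was not tested.

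For each of the 5 members that reached 50 CPM, the 3 genes with the most similar pattern over the 10 cultures were taken from 4275 genes at 50 CPM or more, by Pearson correlation of log2(CPM + 5). They share libraries and depth with the member, so the correlations are descriptions. Prg2 was nearest to Tmed3, Mcee and Acpp (0.97 each), and Prg3 to Tex2 (0.96), Fam49b (0.93) and P4hb (0.91). Cpa3 was nearest to Ly6e (0.99), St6galnac3 (0.96) and Glb1 (0.96). Hdc was nearest to Cerk (0.98), Csgalnact2 (0.97) and Gpr160 (0.97). Gata2 was nearest to Elf1 (0.97), Acadm (0.93) and Prkacb (0.92). Among the members, Prg2 correlated most with Epx (0.93) and Prg3 (0.86), and Cpa3 with Ms4a2 (0.83) and Hdc (0.75), while Gata2 correlated with Prg2 at -0.18.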

How the data were processed

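The deposited matrices, 1 spliced and 1 unspliced, hold UMI counts that were not normalized, with both runs of 1 pool in each, together with the authors' table of the culture of each barcode and their call of each cell. The chemistry is 10x Genomics v3 with MULTI-seq barcodes, per the labels' protocols. Cell Ranger, bustools 0.39.4 and kallisto 0.46 are listed, with no role, per the submitters' processing notes. The genome build and gene models are not given here by any source used. Symbols were given to 54723 of 54838 gene IDs from a table of gene names, and counts of IDs with a common symbol were added up. Of 15582 called barcodes, the authors' 2777 doublets (17.8%) and 265 negatives were left out, which also removed the 26 barcodes listed more than once. The other 12540 cells hold 63.9% of the spliced UMIs, and no further filter or doublet caller was used. Cells of the same culture that were caught together carry the same barcode and cannot be seen by it. Barcodes carry no mark of the run. The unspliced matrix was not used.

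Counts were summed per culture and scaled to CPM, and 3 counts are worth 0.151 to 0.573 CPM. Folds carry exact conditional binomial (Clopper-Pearson) 95% intervals, CPM exact Poisson intervals and shares of cells exact binomial intervals, all for counting error only. Cells were thinned without replacement to 2500 UMIs. The 8 genes, the lists and the measures were chosen with earlier results of these data known. Genes named are the 8 members, up to 3 genes of like pattern for each, genes of the fixed lists with large ratios, and Mpo, S100a8, S100a9, Elane and Hp; further list genes were named after their values were seen. Median log2 ratios use a pseudocount of 5 CPM. The ratio step was tested on simulated data of independent counts, which its intervals also assume. That test therefore could not check the intervals where UMIs gather in few cells. Alternatives were median-of-ratios and TMM scaling (edgeR 4.0.16, R 4.3.3), other limits on CPM and fold, equal weight per cell, thinning, and leaving out cells or free RNA. Software was Python 3.11.15, numpy 2.4.6, scipy 1.17.1 and pandas 2.3.3.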

Additional observations from a re-analysis of the deposited data

Results flagged for a closer look

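In 3 places a member at 20 CPM or more lay below its 0 h culture in 1 series and above it in the other, with counting intervals that exclude 1. Prg3 at 12 h stood at 0.749 of 0 h with brequinar and at 4.34 times 0 h after withdrawal. Cpa3 at 48 h stood at 9.28 times 0 h with brequinar and at 0.734 of 0 h after withdrawal. Gata2 at 48 h stood at 1.24 times 0 h with brequinar and at 0.587 of 0 h after withdrawal. Median-of-ratios and TMM scaling move its log2 ratio by -0.12 and -0.20 with brequinar and by 0.25 and 0.20 after withdrawal. All these moves are toward the 0 h level, and the intervals were not recomputed, so this Gata2 contrast depends on the scaling. Ms4a2, always under 20 CPM, did the same at 48 h, with 7.0 times 0 h with brequinar and 0.422 of 0 h after withdrawal. With 1 culture per condition none of these differences was tested.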

How the results depend on the processing

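Of 120 counts of members recomputed under the alternatives, 109 stayed within 1.5 times the value given. Other measures were less stable, judged by the interval of the value given. Of the folds 197 stayed inside it, 117 left it and 1 changed side of 1. Of the levels 228 stayed and 150 left it. Of the shares of cells with a gene, recomputed at other depths or at 2 or more UMIs, 16 stayed and 110 left it. Of the odds ratios 52 stayed, 46 left it and 9 changed side of 1. A 2-fold limit left 3 higher at 24 h of brequinar (Prg2, Cpa3 and Hdc), and a limit of 50 CPM left 2 higher at 48 h of withdrawal (Prg2 and Prg3). The count of lower members at 48 h of withdrawal was 0 with median-of-ratios factors, TMM factors, 50 CPM or a 2-fold limit. It was 2 with equal weight per cell or thinned cells (Cpa3 and Gata2) and with no limit on CPM (Gata2 and Ms4a2). Lower members for brequinar against withdrawal at 48 h were 0 without the 2% richest cells and with 50 CPM, where the Epx ratio of 1.71 without those cells reversed. Median-of-ratios scaling moves every log2 ratio by -0.24 and -0.12 at 24 and 48 h of brequinar, 0.06 and 0.25 at 24 and 48 h of withdrawal, and -0.38 between the series at 48 h.

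With equal weight per cell Prg2 was 1.64-fold above 0 h at 24 h of brequinar, against 2.93-fold. All 30 recomputed shares of Prg2-rich cells, at 1000 UMIs, without thinning or without cells of 10% or more mitochondrial UMIs (chosen after seeing the data, as was leaving out cells rich in neutrophil granule genes), stayed within the counting interval of the share given. Odds ratios with Mpo turned with depth in 9 cases. Without thinning Prg2 and Mpo had 2.95 with brequinar at 24 h and 4.32 at 24 h of withdrawal, Prg3 and Mpo 3.25 and 2.02 at 24 and 48 h of brequinar, and Cpa3 and Mpo 6.39 with brequinar at 48 h and 3.59 at 24 h of withdrawal. At 1000 UMIs Prg2 and Mpo had 0.925 at 48 h of withdrawal, and Prg3 and Mpo 1.01 with brequinar at 24 h and 0.687 at 24 h of withdrawal. No paired analysis was possible because each condition is 1 culture, and for the same reason no replicate could be left out. The cause of each move was not tested. Depth limits Epx and Ms4a2, with 5 to 269 and 16 to 155 UMIs per culture.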

Other observations

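Further genes of the mast cell, basophil and transcription factor lists had levels that the comparisons above do not give. Slc18a2, the vesicular monoamine transporter that loads histamine into granules, stood at 229 CPM at 48 h of brequinar and 123 CPM at 0 h, and at 57.4 CPM at 48 h of withdrawal and 122 CPM at 0 h. Prss34, a protease gene of mouse basophils and mast cells, stood at 10.9 CPM at 48 h of brequinar and 2.21 CPM at 0 h, and at 1.02 CPM at 48 h of withdrawal and 4.13 CPM at 0 h. Id2, an inhibitor of helix-loop-helix factors, stood at 27.1 CPM at 48 h of brequinar and 5.57 CPM at 0 h, and at 252 CPM at 48 h of withdrawal and 5.69 CPM at 0 h. Tal1, a helix-loop-helix factor of blood progenitors, stood at 8.21 CPM at 48 h of brequinar and 22.6 CPM at 0 h, and at 2.19 CPM at 48 h of withdrawal and 20.6 CPM at 0 h. Each is 1 culture, with no test.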
